A study of Mus musculus with 15 samples.

Results

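The genes described are the 7 cyclin-dependent kinase (CDK) inhibitors of the mouse, chosen by symbol from the 36144 gene symbols of the deposited expression table: Cdkn1a, Cdkn1b and Cdkn1c of the Cip/Kip family, and Cdkn2a, Cdkn2b, Cdkn2c and Cdkn2d of the INK4 family. The question was whether Cdkn1a was alone among them in responding to loss of Smn or to treatment. INK4 proteins bind the monomeric kinases CDK4 and CDK6 and keep D-type cyclins from activating them, while Cip/Kip proteins bind assembled cyclin and CDK complexes and can inhibit CDK2 among others. Both keep the retinoblastoma protein unphosphorylated and so hold E2F factors inactive. Motor neurons are postmitotic, and Cdkn1a, which encodes p21, is best known as a transcriptional target of p53.

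Spinal motor neurons labelled with cholera toxin subunit B, a tracer, were collected from lumbar segments L1-L3 by laser-capture microdissection at postnatal day 6, and their poly(A) RNA was sequenced in 15 libraries, 3 in each of 5 groups. All mice were on an FVB background and carried the human SMN2 and SMNΔ7 transgenes, with males and females in equal proportion. WT littermates were Smn+/+;SMN2;SMNΔ7 and received vehicle. SMA mice were Smn-/-;SMN2;SMNΔ7, a model of spinal muscular atrophy in which the transgenes supply the remaining SMN protein, and also received vehicle. The other 3 groups were Smn-/-;SMN2;SMNΔ7 mice given daily intraperitoneal injections from postnatal day 0: SMA+MW150 (5 mg/kg, a p38 MAP kinase inhibitor), SMA+Pifithrin-alpha (2.2 mg/kg, an inhibitor of p53) and SMA+SMN-C3 (3 mg/kg, a modifier of SMN2 splicing). The number of mice and captured cells behind a library, and the vehicle used, are not given in the sources used here. The design names 3 biological replicates per group, so p-values measure the spread between these libraries.

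Values are TPM (transcripts for every 1000000 in the library), so the number of reads behind a value is unknown. Smn1, the deleted gene, was at 8.97 to 23.3 TPM in the WT libraries and at 0 to 1.5 TPM in the 12 Smn-/- libraries. Mitochondrially encoded transcripts took 21.9% of TPM in WT replicate 1, 20.4% in SMA+Pifithrin-alpha replicate 3, 12.6% in SMA+Pifithrin-alpha replicate 2 and 11.3% in SMA+SMN-C3 replicate 1, against 3.76% to 7.55% in the other libraries. The 10 motor neuron markers, Chat, Isl1 and Mnx1 among them, were each at 1 TPM or more in every library. A gene is called changed at an adjusted p under 0.05 from limma on log2(TPM + 1), adjusted over the 15425 genes at 1 TPM or more in at least 3 libraries. By that filter 6 of the 7 members were tested. Cdkn2a was not.

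Cdkn1a (ENSMUSG00000023067.14, chromosome 17, positions 29090976 to 29100727 of GRCm38, plus strand) was the 1 member called higher in SMA than in WT motor neurons. Its level in the WT libraries was 35.9, 47.5 and 44.7 TPM, and in the SMA libraries 1431, 1140 and 590 TPM. The lowest SMA library was far above the highest WT library, and the SMA mean (1054 ± 427 TPM, SD, n = 3) was 24.7 times the WT mean (42.7 ± 6.09 TPM, SD, n = 3). On the log2(TPM + 1) scale the change was 4.51 (SE 0.40, 95% interval 3.66 to 5.36, limma adjusted p = 1.83e-05). Cdkn1a ranked 3 among all tested genes by size of increase. Of all genes 0.363% were called in this comparison, and 18.3% had groups that did not overlap.

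Cdkn1a was also higher than in WT in each treated group. The SMA+MW150 libraries held 1115, 898 and 601 TPM, the SMA+Pifithrin-alpha libraries 709, 515 and 194 TPM, and the SMA+SMN-C3 libraries 317, 313 and 324 TPM. The SMA+SMN-C3 libraries lay close together, and all 9 treated libraries were above every WT library. The log2 change against WT was 4.28 for SMA+MW150 (adjusted p = 5.85e-05), 3.26 for SMA+Pifithrin-alpha (adjusted p = 0.0014) and 2.88 for SMA+SMN-C3 (adjusted p = 0.0093), each from limma. Cdkn1a was the 1 member called in each of these comparisons, where 0.143%, 0.117% and 0.0194% of all genes were called and 19.9%, 6.87% and 12.8% had groups that did not overlap. All comparisons with WT share the same 3 WT libraries. The call for SMA+Pifithrin-alpha was lost when only its libraries and those of WT were fitted (limma adjusted p = 0.12). The call for SMA+SMN-C3 was lost when any 1 of its 3 libraries was left out, with adjusted p = 0.057 without replicate 1, 0.058 without replicate 2 and 0.083 without replicate 3, while the change stayed at 2.86 to 2.89.

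Across the genotype as a whole, the mean of the 4 Smn-/- groups exceeded WT by 3.73 on the log2 scale (SE 0.32, 95% interval 3.06 to 4.4, limma adjusted p = 1.39e-05). Cdkn1a ranked 1 of the 15425 tested genes by size of increase. The 12 Smn-/- libraries and the 3 WT libraries did not overlap, which held for 0.687% of all genes, and 0.246% were called. A moderated F test over the 5 groups also called Cdkn1a (adjusted p = 9.22e-05) and no other member, with 0.22% of all genes called. The unadjusted F test p was 0.085 for Cdkn1b, 0.16 for Cdkn1c, 0.83 for Cdkn2b, 0.55 for Cdkn2c and 0.23 for Cdkn2d.

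**Figure D1:**
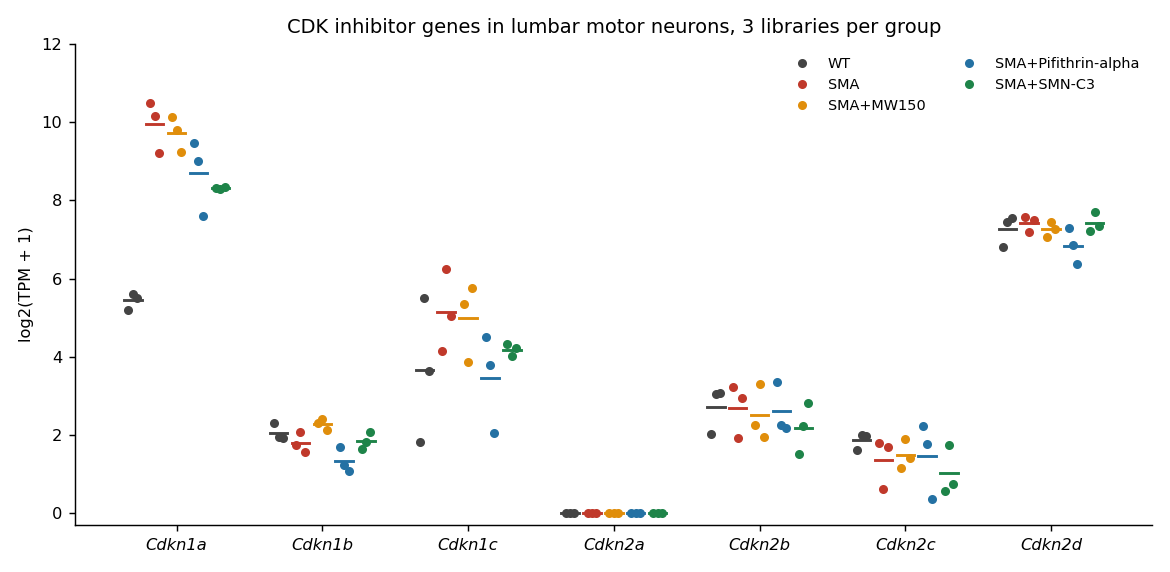
Level of each of the 7 CDK inhibitor genes as log2(TPM + 1), with 1 point per library and a bar at the mean of each group of 3. Cdkn1a stands between 35.9 and 47.5 TPM in WT and between 194 and 1431 TPM in the Smn-/- groups, the groups of the other members overlap in most places, and Cdkn2a is at 0 throughout.

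The order of the Cdkn1a group means was SMA, SMA+MW150, SMA+Pifithrin-alpha, SMA+SMN-C3 and WT, at 1054 ± 427, 871 ± 258, 473 ± 260, 318 ± 5.45 and 42.7 ± 6.09 TPM (SD, n = 3 each). Among neighbours in that order, SMA+SMN-C3 and WT were the 1 pair that passed the test. The limma adjusted p was 1 between SMA+MW150 and SMA. Between SMA+MW150 and SMA+Pifithrin-alpha the log2 difference was 1.03 (95% interval 0.18 to 1.88, limma adjusted p = 0.53). It was 0.38 between SMA+Pifithrin-alpha and SMA+SMN-C3 (95% interval -0.47 to 1.23, limma adjusted p = 0.80). In these last 2 comparisons 0% of all genes were called, and 8.99% and 7.15% had an unadjusted p under 0.05. SMA+MW150 lay above SMA+SMN-C3 by 1.41 without overlap (95% interval 0.56 to 2.26, limma adjusted p = 0.23), in a comparison where 0.00648% of all genes were called and 29.6% had groups that did not overlap. Cdkn1a overlapped between SMA+Pifithrin-alpha and SMA+SMN-C3, where 13.5% of all genes did not.

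Most of the CDK inhibitor TPM came from Cdkn1a in the Smn-/- groups and from Cdkn2d in WT. In WT, Cdkn1a made up 19 ± 3.05% of the summed TPM of the 7 members. Its share was 80.9 ± 7.34% in SMA, 80.4 ± 6.21% in SMA+MW150, 75.4 ± 6.15% in SMA+Pifithrin-alpha and 61.8 ± 3.99% in SMA+SMN-C3 (SD, n = 3 each). Among all gene symbols ordered by TPM, Cdkn1a stood at ranks 2847 to 3242 in the WT libraries and 93 to 281 in the SMA libraries.

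The transcript table splits Cdkn1a between a pair of main transcripts that share a coding sequence (CCDS28591.1) and begin at different starts. Cdkn1a-202 is 922 nucleotides long and begins at an upstream start, position 29090979. Cdkn1a-201 is 1913 nucleotides long and begins at position 29093769. They also end at different positions, so the estimates do not isolate the start alone. The 250 bases before each start are shown because both transcripts were higher without Smn, and the window of Cdkn2d because that gene was the most abundant member in WT and was not called. All are from RefSeq's annotation of GRCm38.p6, 5′ to 3′ on the gene's strand. The Cdkn2d window precedes the RefSeq start at position 21291209. The main transcript, Cdkn2d-203, begins at 21291308, within that window. Capitals mark a match to CATGNNNNNNCATG with 3 bases on either side, the arrangement of a pair of p53 half-site cores.
Cdkn1a, upstream start, chr17:29090729-29090978, plus strand: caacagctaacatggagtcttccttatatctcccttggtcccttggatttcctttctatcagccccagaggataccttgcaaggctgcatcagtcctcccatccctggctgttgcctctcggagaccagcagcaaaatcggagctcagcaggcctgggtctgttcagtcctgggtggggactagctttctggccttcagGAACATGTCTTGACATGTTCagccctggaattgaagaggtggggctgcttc
Cdkn1a, second start, chr17:29093519-29093768, plus strand: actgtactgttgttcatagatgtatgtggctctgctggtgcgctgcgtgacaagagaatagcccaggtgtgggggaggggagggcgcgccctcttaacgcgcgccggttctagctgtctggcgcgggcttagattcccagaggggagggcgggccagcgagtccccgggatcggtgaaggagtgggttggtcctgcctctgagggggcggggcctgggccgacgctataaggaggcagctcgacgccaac
Cdkn2d, chr9:21291210-21291459, minus strand: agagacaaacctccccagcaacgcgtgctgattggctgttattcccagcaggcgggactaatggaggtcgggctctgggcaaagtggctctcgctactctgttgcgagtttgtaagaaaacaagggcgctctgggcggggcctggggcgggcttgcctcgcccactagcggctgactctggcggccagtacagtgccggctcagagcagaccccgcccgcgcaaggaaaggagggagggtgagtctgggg
The match, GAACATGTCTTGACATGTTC, lies at chr17:29090928-29090947, from -51 to -32 relative to the upstream start. The motif was searched on both strands, on which it reads the same, and was found in 161 of 32851 windows of this length (0.49%). RefSeq windows were matched for 6 of the 7 members, 9 windows in all, and the upstream Cdkn1a window alone held it. The shorter CATG, which this motif contains, was in 53.9% of all windows and also in a window of Cdkn2a and that of Cdkn2b. GGGCGG, searched on both strands, was in 32.7% of all windows, with 2 matches before the second Cdkn1a start and 3 in the Cdkn2d window. A match of letters is a description and says nothing of binding in these cells. The motif was chosen after the expression values were known. Of the 35 tested genes with such a match, 1 (2.86%) was called in SMA against WT, beside 0.405% of the 11114 tested genes with any window. That 1 is Cdkn1a itself, whose call was known when the motif was chosen, so no conclusion is drawn from this share.

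Transcripts from both starts were higher in every Smn-/- group. From the upstream start the level was 22.4 ± 7.27 TPM in WT, 667 ± 337 in SMA, 583 ± 192 in SMA+MW150, 269 ± 155 in SMA+Pifithrin-alpha and 188 ± 13.9 in SMA+SMN-C3 (SD, n = 3 each). From the other starts it was 20.3 ± 7.71, 387 ± 93.6, 288 ± 68.2, 204 ± 113 and 130 ± 8.5 TPM in the same order. The upstream share of Cdkn1a was 59.7, 63.2 and 35.0% in the WT libraries and 66.1, 66.8 and 49.5% in the SMA libraries, so the shares overlapped. Cdkn1a-204, a non-coding transcript of the upstream start, was listed at 0 in all 3 WT libraries and at 1.62, 1.39 and 1.11 TPM in SMA. No test was run on transcripts.

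**Figure D2:**
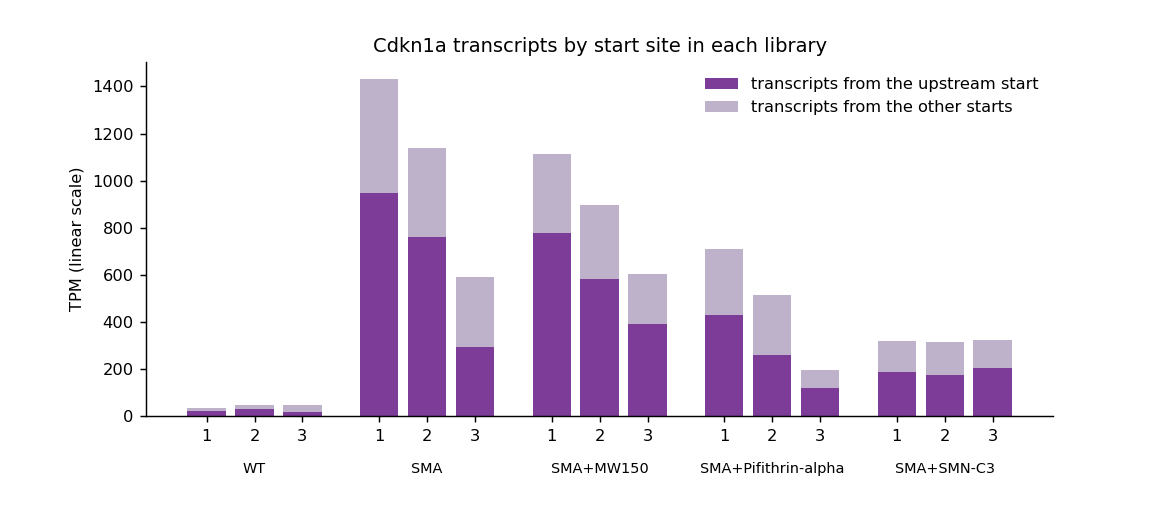
TPM of Cdkn1a in each of the 15 libraries on a linear scale, divided into transcripts from the upstream start (dark) and from the other starts (light), with the replicate number under each bar. Both portions are small in WT, at means of 22.4 and 20.3 TPM, and larger in every Smn-/- library.

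Cdkn1b and Cdkn1c, the other Cip/Kip members, were not called in SMA. Cdkn1b (ENSMUSG00000003031.14, chromosome 6, positions 134920401 to 134925513, plus strand) encodes p27, an inhibitor that keeps many differentiated cells out of the cycle. It was at 3.98, 2.85 and 2.80 TPM in WT and 2.34, 3.25 and 1.97 TPM in SMA, which overlap. The change was -0.26 (SE 0.32, 95% interval -0.94 to 0.41, limma adjusted p = 0.69). The SMA+MW150 libraries were the highest group for Cdkn1b, at 3.90, 4.33 and 3.39 TPM, and the SMA+Pifithrin-alpha libraries the lowest, at 2.22, 1.33 and 1.12 TPM. These groups did not overlap each other, nor did SMA+MW150 overlap SMA or SMA+SMN-C3, nor SMA+Pifithrin-alpha WT. Among all genes the groups did not overlap for 15% when MW150 was set against Pifithrin-alpha, 10.9% when it was set against vehicle and 29.6% when it was set against SMN-C3. For Pifithrin-alpha and WT this share was 6.87%. The log2 difference between SMA+MW150 and SMA+Pifithrin-alpha in Cdkn1b was 0.95 (95% interval 0.28 to 1.63, unadjusted p = 0.0086, limma adjusted p = 0.53). Against WT, Cdkn1b in SMA+Pifithrin-alpha differed by -0.73 (95% interval -1.41 to -0.06, limma adjusted p = 0.84). At these levels 1 TPM of pseudocount understates a fold change.

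Cdkn1c (ENSMUSG00000037664.13, chromosome 7, positions 143458339 to 143461050, minus strand) encodes p57, an inhibitor of the imprinted cluster beside Kcnq1. It had the largest standard error of the 6 tested members. WT libraries held 2.51, 44.6 and 11.4 TPM, and SMA libraries 16.8, 74.6 and 32.1 TPM. The groups overlapped, and the change of 1.5 had an interval that includes 0 (SE 0.79, 95% interval -0.17 to 3.17, limma adjusted p = 0.40). Without WT replicate 1, the WT library with 21.9% mitochondrial TPM, the change was 0.58. The SMA+MW150 libraries held 39.9, 13.5 and 53.4 TPM. Under Pifithrin-alpha the levels were 21.7, 12.9 and 3.16 TPM, and under SMN-C3 they were 19, 15.2 and 17.6 TPM. The 3 genes most correlated with Cdkn1c over the 15 libraries were Apoe (Pearson r = 0.95), S100a16 (r = 0.95) and Rpl13a (r = 0.95). Apoe is abundant in astrocytes and microglia, and it was at 1798 TPM on average in WT and 3888 TPM in SMA.

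The INK4 members gave no call in any comparison. Cdkn2a (ENSMUSG00000044303.6, chromosome 4, positions 89274471 to 89294653, minus strand), which encodes p16INK4a and p19ARF and is a usual marker of senescence, was listed at 0 in all 15 libraries, and so were both of its transcripts. A 0 in an estimated table sets no upper limit without the depth. Cdkn2b (ENSMUSG00000073802.5, chromosome 4, positions 89306299 to 89311039, minus strand), its neighbour, encodes p15INK4b, known as a target of TGF-beta. Its levels were 3.04, 7.26 and 7.43 TPM in WT and 8.28, 2.81 and 6.76 TPM in SMA. The groups overlapped, and the change was -0.01 (95% interval -1.07 to 1.05, limma adjusted p = 0.99).

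Cdkn2c (ENSMUSG00000028551.14, chromosome 4, positions 109660876 to 109667189, minus strand), which encodes p18INK4c, was near the filter, at 1 TPM or more in 11 of 15 libraries. It was at 2.07, 2.97 and 2.96 TPM in WT and 2.44, 0.53 and 2.24 TPM in SMA (log2 change -0.50, 95% interval -1.53 to 0.52, limma adjusted p = 0.61). The SMN-C3 libraries held 0.48, 2.34 and 0.67 TPM. The groups overlapped.

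Cdkn2d (ENSMUSG00000096472.2, chromosome 9, positions 21288410 to 21291407, minus strand) encodes p19INK4d, which is known in postmitotic neurons. It was the most abundant member in WT. Its levels were 112, 174 and 187 TPM in WT and 190, 145 and 179 TPM in SMA. The groups overlapped, and the change was 0.14 (SE 0.27, 95% interval -0.43 to 0.72, limma adjusted p = 0.80), which is the narrowest interval of the 6 tested members. The lowest group was SMA+Pifithrin-alpha, at 155, 115 and 82.1 TPM, and the lowest library was the one with 20.4% mitochondrial TPM. SMA+MW150 held 132, 174 and 153 TPM, and SMA+SMN-C3 held 147, 209 and 162 TPM. Cdkn2d-203 was its main transcript, with 74.8 ± 11.6% of the gene in WT and 85.3 ± 5.21% in SMA (SD, n = 3 each).

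That Cdkn1a passed the test and the others did not does not by itself show that they differ, so the difference was tested. Within each library, log2(TPM + 1) of the other member was subtracted from that of Cdkn1a, and the 12 Smn-/- libraries were compared with the 3 WT libraries by an exact two-sided permutation test over 455 choices. The change of Cdkn1a exceeded that of Cdkn1b by 3.98, of Cdkn1c by 2.94, of Cdkn2b by 3.95, of Cdkn2c by 4.27 and of Cdkn2d by 3.77 on the log2 scale. Each had an exact p = 0.0044, the smallest this design gives, and the same after Benjamini-Hochberg adjustment over the 6 differences. The sixth, against Cdkn2a at 0, is Cdkn1a's own change of 3.73 and had the same exact permutation p. All 6 differences contain the same Cdkn1a values, so they are not 6 independent results. The 12 Smn-/- libraries include the 3 drug-treated groups, while no WT mouse was given a drug, so this contrast holds treatment as well as genotype. In all 6 differences every Smn-/- library lay above every WT library. The margin was smallest against Cdkn1c, where the difference was 3.47 to 6.33 without Smn and 0.09 to 3.39 in WT. Against Cdkn2d it was 0.58 to 3.07 without Smn and -2.04 to -1.62 in WT. Cdkn1a was below Cdkn2d in the 3 WT libraries and above it in the 12 others on this scale. In SMA against WT alone the 6 differences were 3.01 to 5.01, each with exact permutation p = 0.1, the smallest that 3 libraries against 3 allow.

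**Figure D3:**
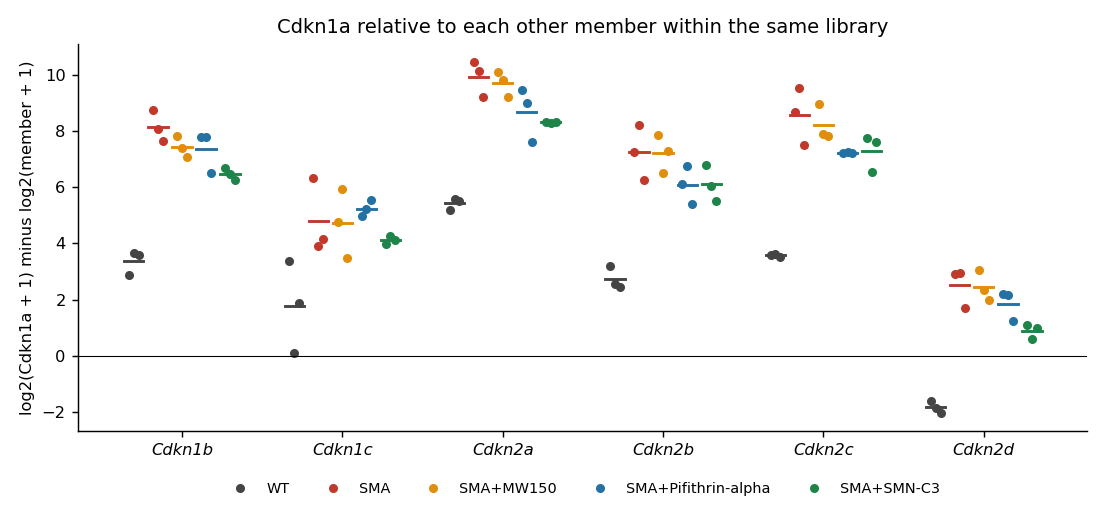
Difference between log2(TPM + 1) of Cdkn1a and of each other member within the same library, with 1 point per library and a bar at the group mean. For each of the 6 members the Smn-/- libraries are all above the WT libraries, and only against Cdkn2d are WT values below 0, at -2.04 to -1.62.

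Against vehicle-treated SMA, no treatment changed a member by the test. Under MW150 and under Pifithrin-alpha 0.00648% of all genes were called, and under SMN-C3 0.0648% were. At an unadjusted p under 0.05 the shares were 1.9%, 10.7% and 8.53% in the same order. They share the 3 SMA libraries. Cdkn1a was lower in each treated group on average, with a difference of -0.23 with MW150 (95% interval -1.07 to 0.62, limma adjusted p = 1), of -1.25 with Pifithrin-alpha (95% interval -2.10 to -0.40, unadjusted p = 0.0064, adjusted p = 0.46) and of -1.63 with SMN-C3 (95% interval -2.48 to -0.78, unadjusted p = 0.00084, adjusted p = 0.17). All genes moved by a median of 0.06, -0.22 and -0.23 in the same comparisons. With SMN-C3 the mean was 0.302 of that in SMA and all 3 libraries were below every SMA library, in a comparison where 20.7% of all genes had groups that did not overlap. Under Pifithrin-alpha the groups overlapped (15.3% of all genes did not). Without its replicate 3, which had 20.4% mitochondrial TPM, the difference was -0.71 with limma adjusted p = 0.99.

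The Cdkn1a call against SMA depended on the fit for SMN-C3. It was called when only the SMA and SMA+SMN-C3 libraries were fitted (limma adjusted p = 0.043), when libraries over 20% or over 10% mitochondrial TPM were left out (adjusted p = 0.01 and 0.046), and with weights per library (adjusted p = 0.0097 and 0.012 by 2 estimators, which called 331 and 231 of all genes beside 10 with equal weights). In the other alternatives with all libraries the adjusted p was 0.066 to 0.34. The size of the difference ranged from -1.63 to -1.37, and from -2.0 to -1.37 when 1 library was left out.

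**Figure D4:**
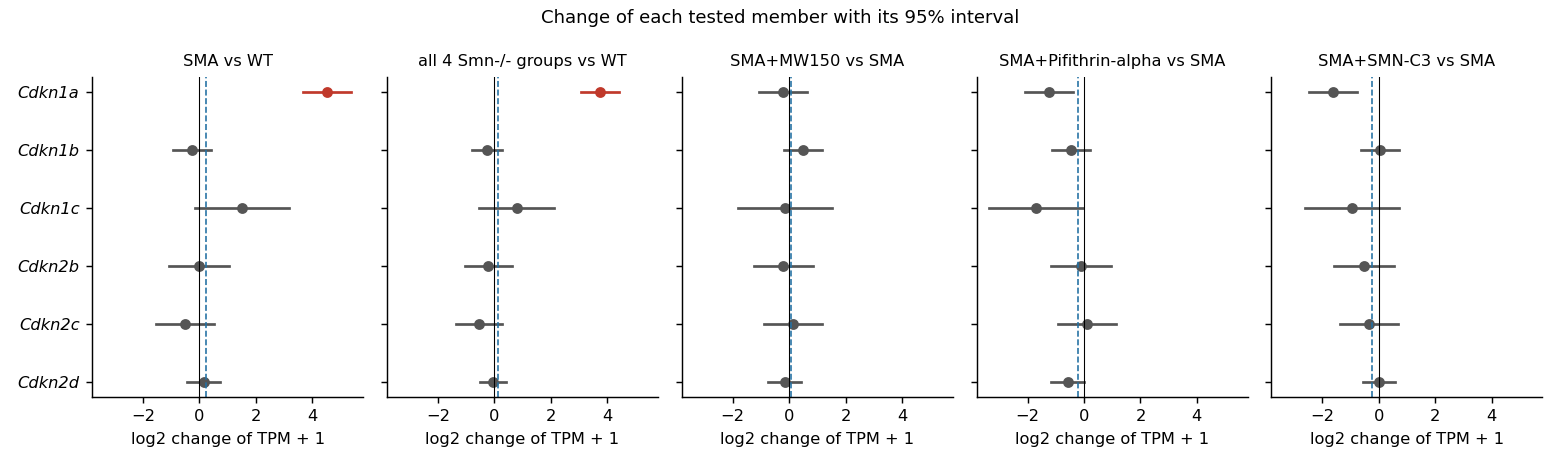
Log2 change of TPM + 1 for the 6 tested members in 5 comparisons, with the 95% interval from limma, in red where called and grey where not. A dashed line marks the median change of all tested genes, and Cdkn1a at 4.51 and 3.73 in the comparisons with WT is the 1 member whose interval lies far from it.

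Among the other members the differences from vehicle-treated SMA had intervals that include 0, apart from a pair with Pifithrin-alpha. Those were Cdkn1c at -1.70 (95% interval -3.37 to -0.03) and Cdkn2d at -0.58 (95% interval -1.16 to -0.01), both with limma adjusted p = 0.46. Between treatments the interval excluded 0 for Cdkn1b in SMA+MW150 against SMA+Pifithrin-alpha, given above. It also did for Cdkn2d in SMA+Pifithrin-alpha against SMA+SMN-C3, at -0.59 (95% interval -1.16 to -0.01, limma adjusted p = 0.69). With MW150 the differences from SMA were 0.48 for Cdkn1b, -0.16 for Cdkn1c, -0.20 for Cdkn2b, 0.12 for Cdkn2c and -0.16 for Cdkn2d. With Pifithrin-alpha, Cdkn1b differed by -0.47, Cdkn2b by -0.10 and Cdkn2c by 0.09. With SMN-C3 the values were 0.05 for Cdkn1b, -0.96 for Cdkn1c, -0.51 for Cdkn2b, -0.35 for Cdkn2c and 0.01 for Cdkn2d. When libraries were weighted gene by gene, Cdkn2d was called lower in SMA+Pifithrin-alpha than in SMA (-0.55, limma adjusted p = 0.041) and than in SMA+SMN-C3 (-0.54, adjusted p = 0.025), and Cdkn1b higher in SMA+MW150 than in SMA+Pifithrin-alpha (1.04, adjusted p = 0.0065). These weights called 1574, 2341 and 2660 of the 15425 genes in the same comparisons, beside 1, 0 and 0 with equal weights. The other estimator of weights, which did not converge, called 5155 genes between SMA+Pifithrin-alpha and SMA, and with them Cdkn1a, Cdkn1b (adjusted p = 0.047), Cdkn1c (adjusted p = 0.018) and Cdkn2d (adjusted p = 0.0025), each from limma and each lower.

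Whether a treatment shifted Cdkn1a apart from the other members was compared in the same way within libraries. The difference between SMN-C3 and SMA in Cdkn1a exceeded that in Cdkn1b by -1.68 and that in Cdkn2d by -1.64, each with exact permutation p = 0.1, the smallest possible. Against Cdkn1c it was -0.67 (exact permutation p = 0.8), against Cdkn2b -1.12 (exact permutation p = 0.2) and against Cdkn2c -1.28 (exact permutation p = 0.3). With Pifithrin-alpha the same differences were -0.78 against Cdkn1b, 0.45 against Cdkn1c, -1.15 against Cdkn2b, -1.34 against Cdkn2c and -0.67 against Cdkn2d. Their exact permutation p was 0.1 to 0.6. With MW150 they were -0.71 against Cdkn1b, -0.07 against Cdkn1c, -0.02 against Cdkn2b, -0.35 against Cdkn2c and -0.06 against Cdkn2d. None of these had an exact permutation p under 0.2. All these comparisons are 3 libraries against 3 and cannot reach 0.05.

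The binding partners and downstream genes of the inhibitors showed no call in SMA. Of 12 tested CDKs and cyclins none was called, with 4 at an unadjusted p under 0.05 and a median log2 change of 0.34 beside 0.24 for all tested genes. Of all tested genes 13.5% had an unadjusted p under 0.05 in this comparison, and 18.3% had groups that did not overlap. Cdk6, a kinase bound by INK4 proteins, was at 4.03 ± 2.49 TPM in SMA and 0.98 ± 0.45 TPM in WT (limma adjusted p = 0.25), and Cdk4 was at 121 ± 14.9 and 65.4 ± 21.7 TPM (adjusted p = 0.34), both with groups that did not overlap. None of 12 tested pocket proteins and E2F factors was called (3 at an unadjusted p under 0.05, median 0.27). Rb1, the retinoblastoma gene, was at 10.4 ± 3.93 TPM in SMA and 33.3 ± 29.5 TPM in WT, with groups that overlapped (adjusted p = 0.36). Rbl2, which encodes the related pocket protein p130, was at 9.95 ± 3.51 TPM in SMA and 5.05 ± 2.16 TPM in WT without overlap (adjusted p = 0.36), and 9 genes of this list were higher and 3 lower on average. None of 17 replication genes that E2F drives was called (3 at an unadjusted p under 0.05, median 0.32), with Rrm2, a subunit of ribonucleotide reductase, at 8.97 ± 3.34 and 4.43 ± 1.02 TPM (adjusted p = 0.35). Of 10 tested genes on CDK5 and atypical cyclins none was called (1 at an unadjusted p under 0.05, median 0.19).

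Among 15 other p53 targets that act in cell cycle arrest, all tested, 2 were called higher in SMA and none lower. Of all genes 0.363% were called. By the sign of the log2 change, 13 of the list were higher and 2 lower. In this list 8 had an unadjusted p under 0.05, as did 13.5% of all tested genes. The median log2 change was 0.73 beside 0.24 for all tested genes. Plk2, a polo-like kinase, was at 37.9 ± 17.4 TPM in SMA and 6.63 ± 0.68 TPM in WT (log2 change 2.27, limma adjusted p = 0.0031). Ccng1, cyclin G1, was at 66.7 ± 25.3 and 18.8 ± 5.52 TPM (1.75, adjusted p = 0.012). The same 2 were called over all 4 Smn-/- groups, at 1.65 (adjusted p = 0.0084) and 1.57 (adjusted p = 0.0052). In SMA+SMN-C3 Plk2 was at 10.3 ± 0.60 TPM, a difference of -1.70 from SMA (adjusted p = 0.11). Among 26 tested regulators of the inhibitors none was called (3 at an unadjusted p under 0.05, median 0.35). Trp73, a relative of p53, was listed at 0 in WT and at 3.21 ± 2.76 TPM in SMA (adjusted p = 0.058), and Trp53 was at 41.0 ± 8.20 and 15.3 ± 1.05 TPM (adjusted p = 0.15). In SMA+SMN-C3 against SMA none of these lists held a call.

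The genes whose pattern over the 15 libraries was most like that of Cdkn1a were Dcxr (Pearson r = 0.99), Crip2 (r = 0.98), Acaa1b (r = 0.97), Abhd11os (r = 0.96), Fam110a (r = 0.93), 1700007K13Rik (r = 0.93), Tap1 (r = 0.92), Aen (r = 0.92), R3hdml (r = 0.91) and Inka2 (r = 0.91). In all, 15 genes had r of at least 0.9 with Cdkn1a. The same count was 39 for Cdkn1c, 55 for Cdkn2d and 0 for Cdkn1b, Cdkn2b and Cdkn2c. Libraries share group and composition, and the correlation is a description. Within groups, after each group mean was taken off, r for these 10 genes was 0.55 for Fam110a to 0.87 for Crip2. Dcxr, a dicarbonyl and xylulose reductase, averaged 14.3 TPM in the WT libraries, 319 in SMA, 224 under MW150, 149 under Pifithrin-alpha and 106 under SMN-C3. None of the other CDK inhibitors was near this pattern, with r to Cdkn1a of -0.15 for Cdkn2c to 0.48 for Cdkn1c, and 0.36 to 0.52 within groups. For Cdkn1b the most similar gene was Igf2r (r = 0.88), for Cdkn2b Otop3 (r = 0.81), for Cdkn2c Klhl36 (r = 0.77) and for Cdkn2d Chchd6 (r = 0.96).

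**Figure D5:**
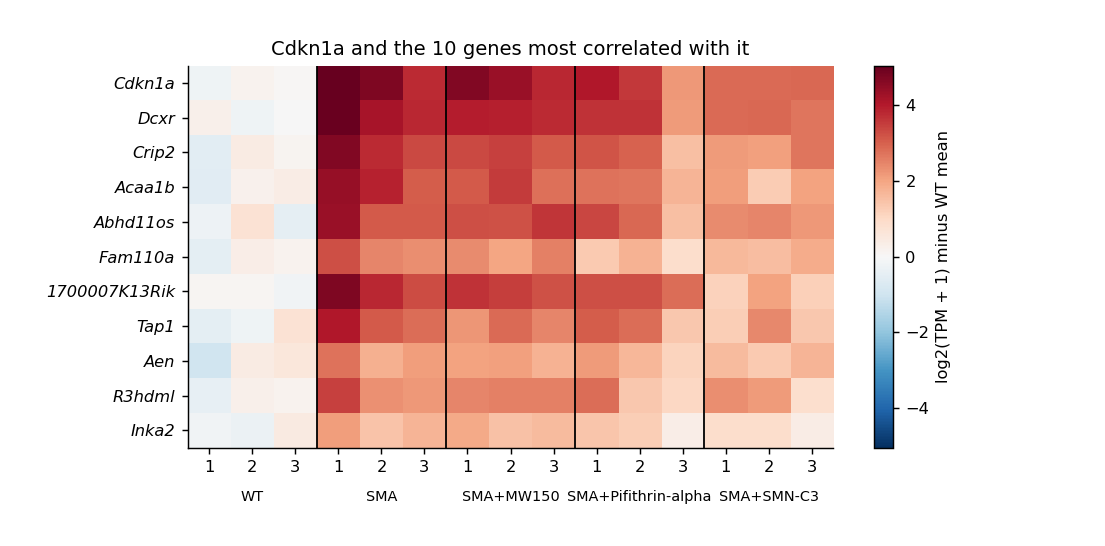
Log2(TPM + 1) minus the WT mean in each library for Cdkn1a and the 10 genes most correlated with it, in order of Pearson r from 0.99 for Dcxr to 0.91 for Inka2. Each row is darkest among the SMA libraries on average, as for Dcxr at a mean of 319 TPM beside 14.3 TPM in WT.

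No tested gene within 200 kb of Cdkn1a was called. Within 200 kb, 7 tested genes had log2 changes of -0.52 to 0.92 in SMA. A pair of them did not overlap between the groups and were named after their values were seen. Of all tested genes, 18.3% had groups that did not overlap in this comparison. Kctd20 was at 30.7 ± 2.82 TPM in SMA and 16.4 ± 5.80 TPM in WT (limma adjusted p = 0.30), and Ppil1 was at 56.1 ± 11.5 and 35.9 ± 10.4 TPM (limma adjusted p = 0.35). Srsf3, a splicing factor 47.6 kb to the left, was at 87.4 ± 4.89 TPM in SMA and 113 ± 35.1 TPM in WT, and Rab44, 13.4 kb to the right, was at 0.84 ± 0.60 and 0.07 ± 0.12 TPM. No gene within 200 kb of any other member was called. Near Cdkn1c the nearest tested gene was Slc22a18, 12.7 kb to the right, at 3.40 ± 3.00 TPM in SMA and 0.23 ± 0.40 TPM in WT (limma adjusted p = 0.26). The annotation places AC167363.2 on the opposite strand overlapping Cdkn1a and Gm44732 on the opposite strand overlapping Cdkn1c. Whether their exons overlap was not examined, and whether the libraries keep strand is not given in the sources used here. Whether reads of these genes add to the members was therefore not assessed.

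RNA of other cell types was present in the captures, and some of it moved with the groups. The summed TPM of 10 microglial markers was 56.9 to 85.6 in WT, 162 to 188 in SMA, 117 to 160 under MW150, 76.9 to 134 under Pifithrin-alpha and 84.4 to 104 under SMN-C3. The medians, 84.7, 169, 121, 92.4 and 89.6, had the same order as the Cdkn1a means. The 8 astrocyte markers summed to 747 to 1461 TPM in WT and 1351 to 1839 in SMA. For the 10 oligodendrocyte lineage markers the sums were 753 to 2285 and 951 to 4683. The 10 vascular markers summed to 87.4 to 107 TPM in WT and 130 to 186 in SMA. The 9 interneuron markers, of which Tlx3 was at 0 in every group, summed to 6.23 to 9.0 and 11.8 to 18.8 TPM. The 8 markers of dividing cells summed to 31.2 to 47.7 TPM in WT and 38.0 to 55.5 in SMA. Motor neuron markers summed to 4388 to 7046 TPM in WT and 4644 to 5486 in SMA. The part of other cells in the levels of the 7 members was not tested, and in bulk RNA fewer cells of a type and less RNA per cell cannot be told apart.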

How the data were processed

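Gene and transcript TPM were deposited for each of 15 libraries. Per the submitters' processing notes the tools included kallisto 0.44.0 and the builds GRCm38.p6 and mm10. The annotation release, strand setting and read totals are not given in the sources used here. Since TPM keeps no depth, the authors' TPM values were not treated as counts. GENCODE M21 (GRCm38) matched 116728 of 118489 transcript names (98.5%) and gave coordinates.

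Genes at 1 TPM or more in at least 3 libraries (15425) were fitted as log2(TPM + 1), 1 mean per group over all 15 libraries, with limma 3.58.1 (eBayes with trend, two-sided) in R 4.3.3. Benjamini-Hochberg adjustment ran over all tested genes within each of 11 comparisons and the F test, and 0.05 was the threshold. The script was checked on simulated data. Other values came from Python 3.11.15.

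The named genes were the 7 members, from each list (CDKs and cyclins, pocket proteins and E2F, E2F-driven replication genes, regulators, other p53 arrest targets, CDK5 and atypical cyclins) at most 4 called genes or else at most 2 of smallest p, the 10 genes most correlated with Cdkn1a and 3 with each other member, and the nearest tested neighbour on each side within 200 kb. Marker lists covered motor neurons, astrocytes, oligodendrocytes, microglia, vascular cells, interneurons and dividing cells. Members and lists were chosen with earlier results of these data known. Alternatives were pseudocounts of 0.1 and 5 TPM, other filters, scalings, library weights, a covariate, a replicate block and left-out libraries.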

Additional observations from a re-analysis of the deposited data

How the results depend on the processing

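The Cdkn1a calls in SMA, in SMA+MW150 and over all Smn-/- groups against WT held under every alternative run, at 4.07 to 4.54, 3.90 to 4.31 and 3.47 to 3.81, and with any 1 library left out. Library weights by gene were added after seeing the data, because the planned weights did not converge and gave SMA+Pifithrin-alpha replicate 2 a weight of 276 (5.71 by gene). No depth is known from TPM, so what depth limits could not be assessed.

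Cdkn1a in SMA+Pifithrin-alpha against WT (3.26) was not called with only those groups fitted (0 members called), while the planned weights called 3 members. In SMA+SMN-C3 against WT (2.88) it was not called without a filter (0 members), and with 1 library left out it was 2.76 to 2.96 with 0 to 1 members called. In SMA+Pifithrin-alpha against SMA the planned weights gave -0.75 and 4 members called (5155 of all genes), and gene weights 1 member (1574 of all genes). In SMA+SMN-C3 against SMA Cdkn1a was called, as the 1 member, at -1.44 and -1.49 with the planned and gene weights, and at -1.63 with only those groups or without libraries over 20% or over 10% mitochondrial TPM. Between SMA+MW150 and SMA+Pifithrin-alpha it was called at 0.68 (4 members, 6816 of all genes) and 0.69 (2 members, 2660 of all genes) with the same weights, and between SMA+MW150 and SMA+SMN-C3 at 1.37 with both weights and 1.41 in the other 3 settings (1 member each). Between SMA+Pifithrin-alpha and SMA+SMN-C3 the planned weights gave 0.68 (4 members, 5780 of all genes) and gene weights called 1 member (2341 of all genes). The F test called 5 and 3 members with these weights. With 1 library left out Cdkn1a was -0.60 to 0.041 in SMA+MW150 against SMA and -0.0067 to 0.92 between SMA+Pifithrin-alpha and SMA+SMN-C3.

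With SMA against WT only, Cdkn1a exceeded the other members in change by 4.77 (Cdkn1b), 3.01 (Cdkn1c), 4.51 (Cdkn2a), 4.52 (Cdkn2b), 5.01 (Cdkn2c) and 4.36 (Cdkn2d), each with exact permutation p = 0.1.

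Over all 11 comparisons, the sign of the other tested members reversed in 8 of 55 values with the planned weights. With gene weights it reversed in 7 of 55, and under the remaining alternatives, left-out libraries included, in 82 of 1008. The reversals given here are those in SMA or all Smn-/- groups against WT and in treated groups against SMA. Cdkn1b between SMA+MW150 and SMA+SMN-C3 is also given, and reversals in the remaining comparisons are not listed. Cdkn2d in SMA against WT was -0.11 with median-of-ratios scaling, -0.020 with quantile normalization, -0.027 and -0.039 with the planned and gene weights, -0.24 with mitochondrial share as covariate and -0.084 without libraries over 20% or 10% mitochondrial TPM. Cdkn2b in SMA+Pifithrin-alpha against SMA was 0.11, 0.15, 0.56, 0.11 and 0.66 with median-of-ratios, quantile, covariate, and the 20% and 10% limits, and Cdkn2c was -0.0020 with a pseudocount of 0.1. With quantile normalization Cdkn2c was -0.015 in SMA+MW150 and 0.020 in SMA+SMN-C3 against SMA, and Cdkn1b was -0.068 between SMA+MW150 and SMA+SMN-C3. Cdkn2d in SMA+SMN-C3 against SMA was -0.023 and -0.015 with the planned and gene weights, and Cdkn1c over all Smn-/- groups against WT was -0.25 with the planned weights.

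With 1 library left out the range against WT in SMA was -0.36 to 0.37 for Cdkn2b and -0.084 to 0.28 for Cdkn2d, and over all Smn-/- groups -0.13 to 1.72 for Cdkn1c and -0.27 to 0.10 for Cdkn2d. Against SMA it was -0.65 to 0.41 (Cdkn1c), -0.60 to 0.078 (Cdkn2b) and -0.25 to 0.33 (Cdkn2c) with MW150, -0.48 to 0.16 (Cdkn2b) and -0.30 to 0.63 (Cdkn2c) with Pifithrin-alpha, and -0.064 to 0.20 (Cdkn1b) and -0.14 to 0.11 (Cdkn2d) with SMN-C3. The cause of these changes was not tested.

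Same-numbered replicates of different groups deviated together with r = -0.34 to 0.29 over 30 pairs, so the numbers were not taken to pair the samples. With the replicate block Cdkn1a was 4.51 in SMA against WT and -1.63 in SMA+SMN-C3 against SMA, no call of a member changed in 12 of 12 tests, and the count of all genes between SMA+MW150 and SMA+SMN-C3 went from 1 to 7. Over all alternatives, left-out libraries included, the number of genes called was 16 to 162 in SMA against WT (56 as reported), 9 to 248 for SMA+MW150 (22), 0 to 3760 for SMA+Pifithrin-alpha (18) and 2 to 59 for SMA+SMN-C3 (3). Against SMA it was 0 to 3 with MW150 (1), 0 to 5155 with Pifithrin-alpha (1) and 0 to 331 with SMN-C3 (10), and over all Smn-/- groups against WT 15 to 146 (38).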
